A study of Mus musculus with 10 samples.

Results

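Small non-coding RNAs were followed across embryonic stem cell lines that lack different isoforms of Mbd3, a subunit of NuRD, a complex that remodels nucleosomes and deacetylates histones. A gene was counted as a small non-coding RNA when the authors' deposited tables gave it a type other than protein-coding or pseudogene and a Length under 350 bases, and when its symbol did not start with Hist. This rule found 58 genes among 8683 genes called in any comparison. They were 15 box C/D small nucleolar RNAs (snoRNAs), 10 box H/ACA snoRNAs, 3 small Cajal body RNAs (scaRNAs), 2 small nuclear RNAs (snRNAs), 24 microRNA genes and 4 others: Rmrp, Rpph1, Rprl3 and Vaultrc5. No measured value entered the choice beyond being called in a table. The members closest to the Length limit were Vaultrc5, at 344 bases, and Rpph1, at 324 bases, and the genes just beyond it were 5730408K05Rik, at 383 bases, the telomerase RNA gene Terc, at 396 bases, and Snhg6, at 403 bases.

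Box C/D snoRNAs guide the methylation of ribose in ribosomal RNA, and box H/ACA snoRNAs guide the conversion of uridine to pseudouridine. The scaRNAs do the same for spliceosomal snRNAs in Cajal bodies. Most mammalian snoRNAs are cut out of the introns of longer host transcripts, whereas Rmrp, the RNA of the ribonuclease MRP that processes ribosomal RNA precursors, and Rpph1, the RNA of the ribonuclease P that trims the 5′ end of tRNAs, have their own RNA polymerase III promoters. MicroRNAs are trimmed from hairpins in longer transcripts and repress messenger RNAs through their seed.

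The data were RNA sequencing libraries of E14 mouse embryonic stem cells grown on gelatin, 2 per group and 10 in all. The mutant lines were Mbd3ab KO (Mbd3ab -/-, mutated in exon 2 of Mbd3), Mbd3c KO (Mbd3c -/-, mutated in intron 2), Mbd3abc KO (Mbd3abc -/-, mutated in exon 5) and Mbd3cΔN-ab KO (genotype Mbd3cdeltaN; ab-/-, mutated in exon 2), all made with CRISPR/Cas9, and the same 2 wild type (WT) E14 libraries served every comparison. Libraries were strand-specific and made from 2 µg of total RNA depleted of ribosomal RNA. The labels name 2 suppliers for the depletion, NEB and Clontech, and do not say which served which library, so a difference in depletion between groups cannot be told apart from the folds below. The labels call the 2 libraries of a group biological replicates, and the deposited columns carry a different name for each mutant library. No source used here says whether these names stand for separate clones. Values are reads per gene divided by the size factor of the library. They are comparable within a table only, because each mutant was normalized with the WT libraries separately.

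The second Mbd3c KO library was the smallest, with 0.485 times the total reads of the first WT library. The other mutant libraries had between 0.71 and 1.38 times, and the second WT library had 1.59 times. Mbd3 RNA was called lower in Mbd3ab KO, Mbd3abc KO and Mbd3cΔN-ab KO and was not among the genes called in Mbd3c KO. Of 9 embryonic stem cell markers, 6 were called in Mbd3abc KO, 2 higher and 4 lower, and none of these was below 1724 normalized reads in any library, and 4 were called in Mbd3cΔN-ab KO, 1 higher and 3 lower. Of 6 fibroblast markers, Col1a1 and Thy1 were called in both lines, 1 higher and 1 lower in each. Their summed levels were 574 and 589.6 normalized reads in Mbd3abc KO, against 228 and 209.6 in WT, and 339 and 385 in Mbd3cΔN-ab KO, against 216 and 200.3 in WT. Of 5 trophectoderm markers, Krt18 was called in Mbd3c KO, with 307 and 286 normalized reads, against 75.1 and 98.1 in WT, and Krt8 and Krt18 in Mbd3abc KO, with summed levels of 1217 and 538, against 188 and 264 in WT. In Mbd3ab KO 3 were called, 2 higher and 1 lower, with summed levels of 1030 and 964 normalized reads, against 1187 and 1208 in WT. In Mbd3cΔN-ab KO 2 were called, 1 higher and 1 lower, with summed levels of 651 and 598, against 1212 and 1197 in WT. Of 5 primitive endoderm markers only Dab2 was called, in Mbd3abc KO. Their part in the results was not tested. In bulk RNA, fewer cells with an RNA and less of it per cell cannot be told apart.

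The sequences of the members that the results turn on are given first, as DNA letters from GENCODE M21 on the GRCm38 build. The box C/D snoRNAs below are those of the host genes Eif4a2, Rps3 and Rpl13a, whose snoRNAs are described later. Capitals mark the letters TGATGN nearest the 5′ end, which correspond to the C box, and CTGA nearest the 3′ end, which correspond to the D box.
Snord2 (chr16:23108953-23109021, plus strand): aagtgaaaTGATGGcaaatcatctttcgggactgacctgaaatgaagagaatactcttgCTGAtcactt
Snord15a (chr7:99482785-99482932, minus strand): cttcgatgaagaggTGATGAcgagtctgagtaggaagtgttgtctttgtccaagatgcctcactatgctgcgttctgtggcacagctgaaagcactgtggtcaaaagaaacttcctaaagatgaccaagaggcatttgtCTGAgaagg
Snord15b (chr7:99479563-99479707, minus strand): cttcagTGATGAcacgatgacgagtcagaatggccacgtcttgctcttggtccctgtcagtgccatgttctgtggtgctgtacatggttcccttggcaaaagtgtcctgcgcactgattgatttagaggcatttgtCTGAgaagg
Snord33 (chr7:45126864-45126947, minus strand): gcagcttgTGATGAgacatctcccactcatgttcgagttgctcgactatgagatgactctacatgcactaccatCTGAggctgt
Snord34 (chr7:45126601-45126670, minus strand): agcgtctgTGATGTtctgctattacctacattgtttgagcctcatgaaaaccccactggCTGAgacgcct
Snord35a (chr7:45126346-45126435, minus strand): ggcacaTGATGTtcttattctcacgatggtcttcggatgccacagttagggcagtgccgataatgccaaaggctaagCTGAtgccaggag

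Snord15a and Snord15b, both in the ribosomal protein gene Rps3, were identical at 96 of their aligned bases, or 68.1%. Over all C/D members, 14 of 15 held TGATGN in the first 25 bases and 13 of 15 held CTGA in the last 20, on the strand of the RNA, against 88.8% and 98% of the 98 Snord transcripts in GENCODE. Of the 10 H/ACA members, 9 held ACA in the last 7 bases, against 95.2% of the 42 Snora transcripts. Snora23, the only small RNA called in 3 of the 4 mutants, is shown with that ACA in capitals.
Snora23 (chr7:110046364-110046547, plus strand): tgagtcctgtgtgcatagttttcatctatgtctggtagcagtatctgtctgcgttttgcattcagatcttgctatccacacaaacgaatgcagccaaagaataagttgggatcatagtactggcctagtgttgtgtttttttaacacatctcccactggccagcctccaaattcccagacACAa

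Rmrp, one of the pair of members with the most reads, and Rprl3, a gene that is annotated as related to the RNA of ribonuclease P, are shown whole. Over 279 aligned bases Rprl3 was identical to Rpph1 at 246, or 88.2%, and the longest run of shared bases was 37. Of Rpph1 only the first 35 bases are shown beside those of Rprl3, with the 2 differing bases in capitals, because the rest lies mostly in an annotated untranslated exon of Ccnb1ip1. No source used here says how reads that match both genes were counted, so the split between Rpph1 and Rprl3 is uncertain.
Rmrp (chr4:43492788-43493058, minus strand): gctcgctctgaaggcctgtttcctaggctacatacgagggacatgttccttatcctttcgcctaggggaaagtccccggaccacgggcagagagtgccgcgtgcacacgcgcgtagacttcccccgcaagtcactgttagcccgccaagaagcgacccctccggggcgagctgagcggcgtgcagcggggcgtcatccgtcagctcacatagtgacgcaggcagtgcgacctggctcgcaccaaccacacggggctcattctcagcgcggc
Rprl3 (chr8:3803069-3803358, minus strand): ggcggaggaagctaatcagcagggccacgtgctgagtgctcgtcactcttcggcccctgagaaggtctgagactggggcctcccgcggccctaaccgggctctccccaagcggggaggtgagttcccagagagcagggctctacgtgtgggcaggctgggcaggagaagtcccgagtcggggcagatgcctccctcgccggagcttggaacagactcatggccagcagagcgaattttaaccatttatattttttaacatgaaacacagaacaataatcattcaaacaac
Rpph1, first 35 bases (chr14:50807733-50807767, minus strand): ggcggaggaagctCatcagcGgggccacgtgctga
Rprl3, first 35 bases (chr8:3803324-3803358, minus strand): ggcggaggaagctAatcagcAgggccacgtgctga

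The deposited row of Scarna2, the member with the smallest adjusted p in Mbd3abc KO, covers 61 of the 414 bases of the RNA in GENCODE, so its reads stand for bases 350 to 410 from the 5′ end. Those bases are in capitals within the last 100 bases.
Scarna2, last 100 bases (chr3:108554338-108554437, minus strand): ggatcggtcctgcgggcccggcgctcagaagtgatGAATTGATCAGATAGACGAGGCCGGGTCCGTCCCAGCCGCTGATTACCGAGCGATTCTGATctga

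The microRNA genes of the miR-290 cluster, which is expressed in early embryos and embryonic stem cells, are shown by their 3p products with the seed (bases 2 to 8) in capitals, from RefSeq on GRCm38.p6. The seeds of these 3 products differ at the last base only. The 5p products of Mir291a and Mir291b share the seed AUCAAAG, the only seed that 2 of the microRNA members had in common among the 30 mature products matched.
mmu-miR-290a-3p (chr7:3218674-3218697, plus strand): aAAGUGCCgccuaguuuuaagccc
mmu-miR-291a-3p (chr7:3218968-3218989, plus strand): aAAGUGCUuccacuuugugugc
mmu-miR-291b-3p (chr7:3219529-3219550, plus strand): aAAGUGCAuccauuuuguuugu
miR-5121, a mature product of one member, is found letter for letter at bases 3 to 23 of another, Snord33, and both products of Mir3069 lie in Scarna13.
mmu-miR-5121 (chr7:45126925-45126945, minus strand): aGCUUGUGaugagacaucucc

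Where the members lie bears on what their rows count. By GENCODE, with an exon overlap of at least 50%, 20 of the 58 members lay in an exon of a non-coding or retained-intron transcript, 11 in an exon of a protein-coding transcript, 18 in an intron and 9 outside longer genes. Of the 24 microRNA genes, 4 lay in coding sequence and 5 in untranslated exons of messenger RNAs. Reads of such a row cannot be told apart from reads of the transcript around it. The libraries hold fragments of total RNA, and a row of a microRNA gene counts reads over the whole hairpin, not the mature microRNA.

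In Mbd3ab KO no small RNA was called. The authors' DESeq2 calls, at an adjusted p under 0.05, held 442 of 13201 genes tested there, or 3.35%, of which 2.05% were higher and 1.3% lower, and 0 of them were small RNAs. Refits with edgeR, limma and DESeq2 also held 0, and 0 at an unadjusted p under 0.05, because they could test only the genes that the table lists. How many small RNAs were tested in any of the comparisons is not known from these tables.

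In Mbd3c KO 11 small RNAs were called and all 11 were higher. They were the RNA polymerase III transcripts Rmrp, Rpph1 and Vaultrc5 (a vault RNA), the C/D snoRNAs Snord15a, Snord15b and Snord17, the H/ACA snoRNAs Snora23 and Snora81, the Cajal body RNAs Scarna6 and Scarna13, and Mir6516. In this comparison 38 of 10761 genes tested were called, or 0.353%, with 0.316% higher and 0.0372% lower. Small RNAs made up 28.9% of the genes called. Their median deposited log2 fold change was 1.74, against 1.69 over all genes called.

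Rmrp had 130793 and 110057 normalized reads in Mbd3c KO libraries, against 32678 and 25126 in WT libraries. Both mutant libraries stood far above both WT libraries, and the group means differed 4.17-fold. In every comparison mutant and WT libraries were apart for 100% of genes called, so such separation is not particular to small RNAs. In the authors' deposited table its log2 fold change was 1.71 ± 0.34 (SE), with a DESeq2 adjusted p of 0.000804, the smallest among the small RNAs.
Rpph1 had 120246 and 181459 normalized reads in Mbd3c KO libraries and 36485 and 30231 in WT libraries, 4.52-fold higher. Per kilobase of Length, the levels of both RNAs were alike: 439509 normalized reads per kilobase for Rmrp and 465594 for Rpph1 in Mbd3c KO, and 105483 for Rmrp and 102957 for Rpph1 in WT. Together they made up 97.3% and 98.3% of the normalized reads summed over the 11 small RNAs in Mbd3c KO libraries, and 98.1% and 98.2% in WT libraries. Vaultrc5 was 6.43-fold higher, at 169 and 102 normalized reads in Mbd3c KO and 25.4 and 16.8 in WT, with 57 reads in the WT libraries in all. Its row spans 345 bases, of which the RNA in GENCODE covers 143, so reads outside that RNA could be counted too.

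**Figure D1:**
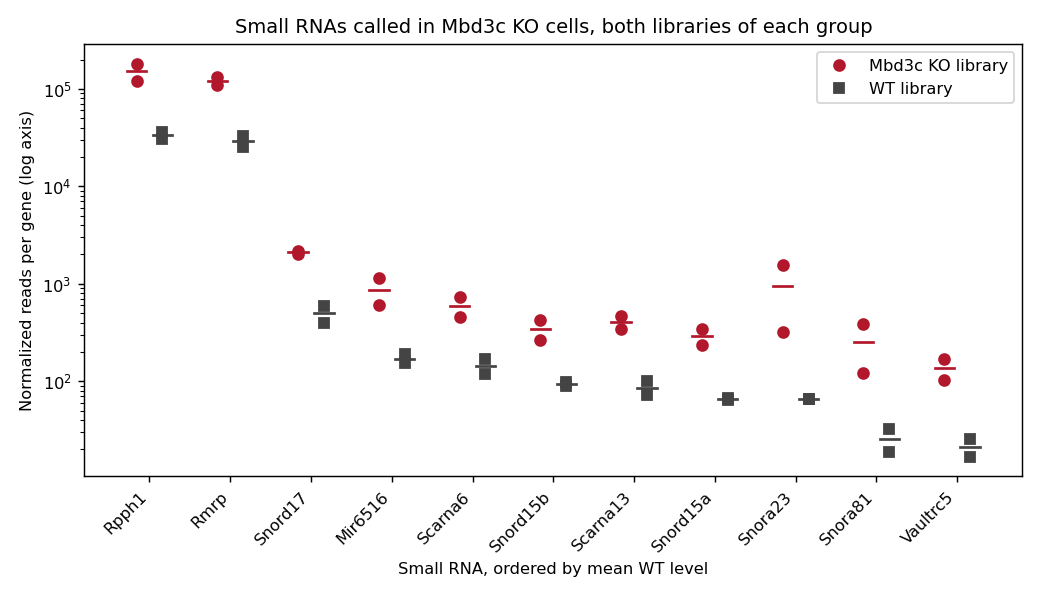
Normalized reads per gene (log axis) of the 11 small RNAs called in Mbd3c KO, with 1 point per library and a line at each group mean (n = 2 each), Mbd3c KO left of WT. Mbd3c KO libraries lie above WT libraries for every RNA shown, and the Mbd3c KO libraries differ most for Snora23 and Snora81. The groups are likewise apart for 100% of all genes called in Mbd3c KO.

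Among the snoRNAs called, Snord17 had the most reads, with 2017 and 2174 normalized reads in Mbd3c KO and 598 and 400 in WT, 4.20-fold higher. The pair in Rps3 moved by like amounts: Snord15a was 4.42-fold higher, at 238 and 343 normalized reads in Mbd3c KO and 64.3 and 67.3 in WT, and Snord15b 3.63-fold higher, at 423 and 264 in Mbd3c KO and 89.6 and 99.2 in WT. The deposited adjusted p of Snord15b, 0.0453, was the largest among the 11. The H/ACA snoRNAs had the largest folds and the widest spread. Snora23 had 1570 and 319 normalized reads in Mbd3c KO libraries, against 65.2 and 66.2 in WT libraries, a 14.4-fold difference of means. The first Mbd3c KO library was thus 4.93-fold above the second. Snora81 was spread likewise, at 383 and 123 normalized reads in Mbd3c KO and 19.0 and 32.5 in WT, 9.82-fold higher with a 3.13-fold gap between the Mbd3c KO libraries.

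Both Cajal body RNAs were higher, Scarna6 4.17-fold, at 454 and 740 normalized reads in Mbd3c KO and 168 and 119 in WT, and Scarna13 4.69-fold, at 465 and 343 in Mbd3c KO and 101 and 72.0 in WT. Mir6516 was 5.09-fold higher, at 1135 and 601 normalized reads in Mbd3c KO and 188 and 153 in WT. Its row overlaps an annotated scaRNA, Gm26083, over 88 bases, and the 2 cannot be told apart. No longer gene whose row spans any of the 11 was called in Mbd3c KO, so no host value stands beside them.

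The Mbd3c KO calls changed with the WT libraries and with the tool. DESeq2 refits of the listed genes called 9 of the 11 with all libraries, 8 without the first and 11 without the second Mbd3c KO library. They called 4 without the first WT library, Snord17, Rmrp, Rpph1 and Snora23, and 1 without the second WT library, Snora23, while edgeR and limma called 0 of the 11 with all libraries, each with an unadjusted p under 0.05 by either tool. Histone genes, other RNAs that mostly have no poly(A) tail, moved in the same direction: all 10 symbols starting with Hist that were called in Mbd3c KO were higher. Of all genes called in Mbd3c KO, 89.5% were higher, so this is near the share over all calls. The part of library content in the result was not tested.

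In the lines that lack more of Mbd3, most of the small RNAs in the authors' calls were lower. In Mbd3abc KO this majority was not kept in DESeq2 refits with either WT library left out, where more of the calls were higher. In Mbd3cΔN-ab KO it was kept without the first WT library and not without the second. In Mbd3abc KO 45 small RNAs were called, 14 higher and 31 lower, against a background of 52.1% of 15622 genes tested, 27.1% higher and 24.9% lower. In Mbd3cΔN-ab KO 29 were called, 6 higher and 23 lower, against 41.5% of 14429 genes tested, 21.1% higher and 20.4% lower. Of the genes called, 68.9% of small RNAs were lower in Mbd3abc KO, against 47.9% of all genes called, and 79.3% in Mbd3cΔN-ab KO, against 49.1%. The median deposited log2 fold change of small RNAs was -1.33 in Mbd3abc KO, against 0.46 over all genes called, and -1.22 in Mbd3cΔN-ab KO, against 0.37. No direction changed when libraries were scaled by their totals, for small RNAs or for any other gene called. That scaling moved log2 fold changes little, by a median of 0.07 in Mbd3abc KO and 0.10 in Mbd3cΔN-ab KO over the genes with more reads. It could thus hardly turn a direction. Among non-coding genes of 350 bases or more, more were higher than lower, with 71 higher and 54 lower in Mbd3abc KO and 47 higher and 27 lower in Mbd3cΔN-ab KO, while histone symbols were lower in 46 of 47 cases in Mbd3abc KO and in 40 of 40 in Mbd3cΔN-ab KO. The part of library content in these counts was not tested.

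Both comparisons used the same WT libraries. They shared 23 small RNAs, which is 51.1% of those in Mbd3abc KO and 79.3% of those in Mbd3cΔN-ab KO. Over all genes, 5404 were called in both, of 8132 called in Mbd3abc KO and 5989 in Mbd3cΔN-ab KO. These are larger shares than those of the small RNAs. Among the small RNAs called in Mbd3abc KO, the counts higher and lower were 3 and 6 for C/D snoRNAs, 3 and 6 for H/ACA snoRNAs, 0 and 1 for scaRNAs, 1 and 0 for snRNAs, 6 and 16 for microRNA genes and 1 and 2 for the others. In Mbd3cΔN-ab KO they were 2 and 5 for C/D snoRNAs, 2 and 4 for H/ACA snoRNAs, 0 and 1 for scaRNAs, 0 and 1 for snRNAs, 2 and 11 for microRNA genes and 0 and 1 for the others. DESeq2 refits without the first or the second library of the mutant called 16 and 18 of the 45 in Mbd3abc KO and 11 and 9 of the 29 in Mbd3cΔN-ab KO. Without the first or the second WT library they called 9 and 10 of the 45, and 6 and 6 of the 29.

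**Figure D2:**
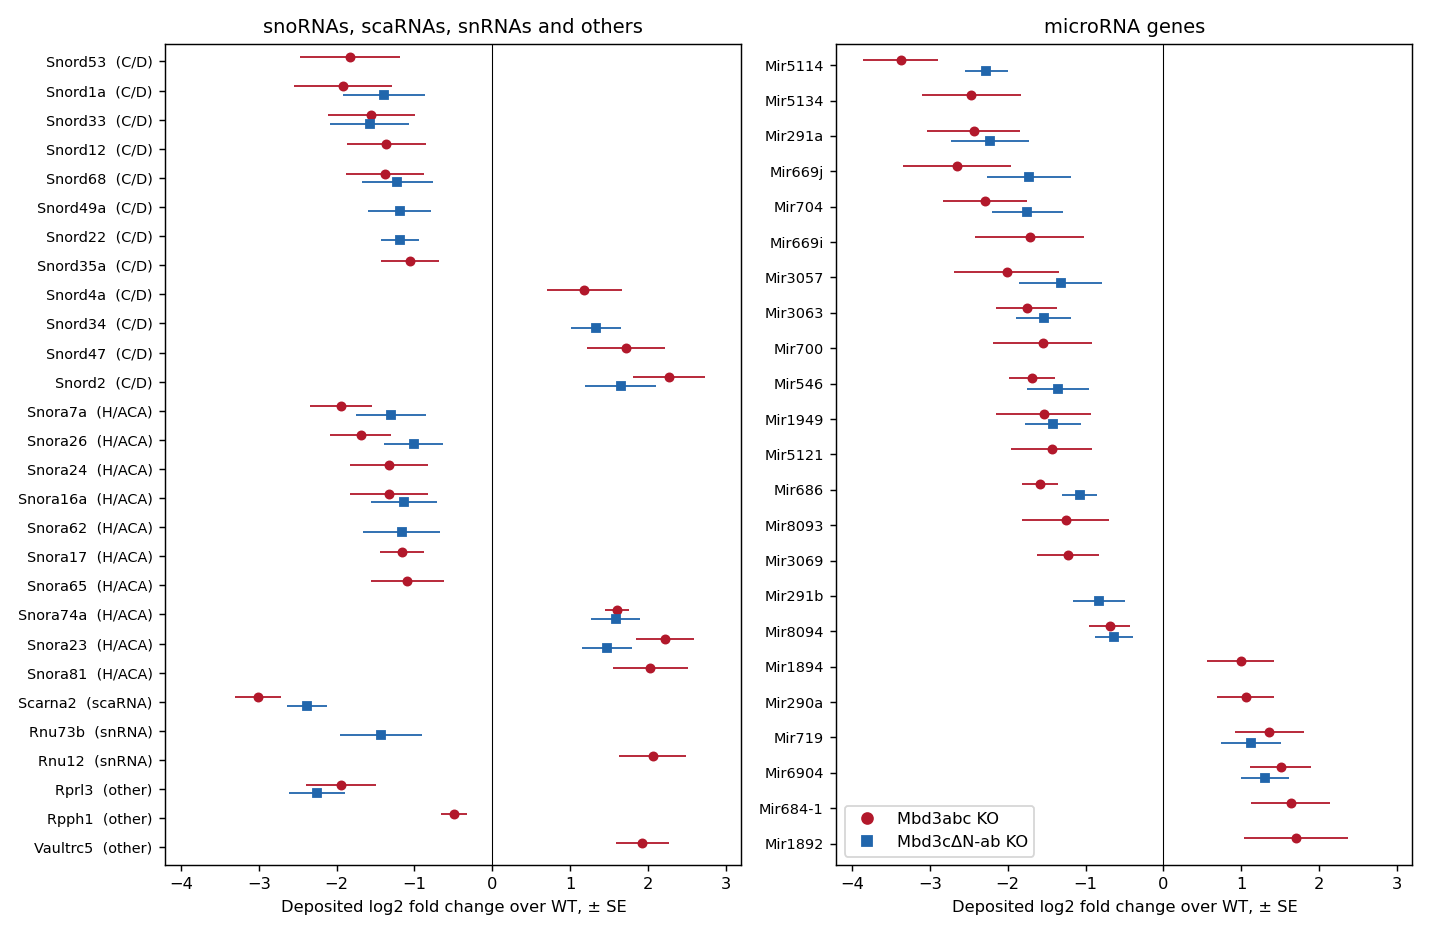
Deposited log2 fold change over WT with its SE for every small RNA called in Mbd3abc KO (red circles) or Mbd3cΔN-ab KO (blue squares), by class. A missing point is a gene that was not called in that line. The median is -1.33 in Mbd3abc KO and -1.22 in Mbd3cΔN-ab KO. The 23 RNAs with both points have them on the same side of 0, which the shared WT libraries favour. The same count over all genes called in both lines was not made.

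Of the ribonuclease RNAs, Rmrp was called in neither line. Rpph1 was slightly lower in Mbd3abc KO, at 34712 and 31870 normalized reads, against 51873 and 42490 in WT, 1.42-fold lower. Its deposited log2 fold change was -0.50 ± 0.17 (SE) in the authors' deposited table, with a DESeq2 adjusted p of 0.00696, the only case of a small RNA called with opposite directions in 2 mutants. This call was lost with limma (adjusted p = 0.0964) and, in DESeq2 refits, without the second Mbd3abc KO library (0.177), the first WT library (0.458) or the second WT library (0.0801). Rprl3 was lower in both lines. It had 273 and 726 normalized reads in Mbd3abc KO, against 2560 and 2026 in WT, 4.59-fold lower, and 501 and 234 in Mbd3cΔN-ab KO, against 2430 and 1936 in WT, 5.95-fold lower. The mutant libraries of each line differed more than 2-fold for Rprl3 but stayed below both WT libraries. Mutant and WT libraries were apart for 100% of genes called in each line. The adjusted p in the authors' deposited table was 5.9e-05 in Mbd3abc KO and 3.68e-09 in Mbd3cΔN-ab KO. Vaultrc5 was higher in Mbd3abc KO too, 4.08-fold, at 111 and 133 normalized reads, against 36.0 and 23.7 in WT.

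Genes for proteins that act on small RNAs were counted by list, beside the 52.1% of all genes tested that were called in Mbd3abc KO and the 41.5% in Mbd3cΔN-ab KO. A share called near these is not a result about a list. Of 11 genes for proteins of ribonuclease P and MRP, 7 were called in Mbd3abc KO, or 63.6%, 1 higher and 6 lower, with a median log2 fold change of -1.02. In Mbd3cΔN-ab KO 8 were called, or 72.7%, 1 higher and 7 lower, with a median of -0.85. Rpp25l and Rpp25, which bind the RNA subunits, were 3.76-fold and 3.15-fold lower in Mbd3abc KO and 2.20-fold and 2.12-fold lower in Mbd3cΔN-ab KO. Rpp30, another subunit, was 2.33-fold higher in Mbd3abc KO. Of 20 RNA polymerase III subunits and factors, 5 were higher and 8 lower in Mbd3abc KO, and 2 higher and 6 lower in Mbd3cΔN-ab KO, so that the 8 called there, 40% of the list, were near the background. The repressor Maf1 was 2.27-fold lower in Mbd3abc KO and 1.68-fold lower in Mbd3cΔN-ab KO, and the initiation factor Bdp1 was 3.05-fold higher in Mbd3abc KO and 2.48-fold higher in Mbd3cΔN-ab KO. Of 5 genes for proteins of 7SK RNA and for La, 3 were higher and 1 lower in Mbd3abc KO, and 3 higher and 0 lower in Mbd3cΔN-ab KO. Ssb, which encodes La, the protein that binds the 3′ ends of new polymerase III transcripts, was 10.3-fold higher in Mbd3abc KO and 5.81-fold higher in Mbd3cΔN-ab KO, the largest fold on any of the protein lists in either line.

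Scarna2 had 177 and 284 normalized reads in Mbd3abc KO libraries, against 2254 and 1846 in WT libraries, 8.89-fold lower. In Mbd3cΔN-ab KO it had 407 and 270, against 2139 and 1764 in WT, 5.77-fold lower. All mutant libraries lay far below the WT libraries, and mutant and WT libraries were apart for 100% of genes called in each line. The DESeq2 adjusted p in the authors' deposited table was 2.5e-23 in Mbd3abc KO and 1.23e-18 in Mbd3cΔN-ab KO. Of 11 genes of Cajal bodies and snRNP assembly, 9 were called in Mbd3abc KO, or 81.8% against the 52.1% of all genes, 1 higher and 8 lower. In Mbd3cΔN-ab KO 6 were called, or 54.5% against 41.5%, all lower. Gemin4, Gemin5 and Gemin7, parts of the SMN complex that loads Sm proteins on snRNAs, were 3.86-fold, 2.81-fold and 2.53-fold lower in Mbd3abc KO and 2.40-fold, 2.24-fold and 1.75-fold lower in Mbd3cΔN-ab KO.

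The snRNAs were Rnu12, the U12 RNA of the minor spliceosome, and Rnu73b, which the file types as an snRNA and GENCODE as a snoRNA. Rnu12 was 4.93-fold higher in Mbd3abc KO, at 163 and 346 normalized reads, against 55.4 and 48.1 in WT. Rnu73b had no read in either Mbd3cΔN-ab KO library and 15 reads over both WT libraries, which makes it at least 4.81-fold lower with a floor of 3 reads over the mutant group. Of 12 Sm and U snRNP protein genes, 5 were higher and 3 lower in Mbd3abc KO, or 66.7% called, and 4 higher and 3 lower in Mbd3cΔN-ab KO, or 58.3% called. Snrpd1 was 2.35-fold higher in Mbd3abc KO and 1.86-fold higher in Mbd3cΔN-ab KO, and Snrpa was 1.86-fold lower in Mbd3abc KO and 1.70-fold lower in Mbd3cΔN-ab KO. Of 17 genes of snRNA transcription and 3′ processing, 5 were higher and 7 lower in Mbd3abc KO, or 70.6% called, and 4 higher and 7 lower in Mbd3cΔN-ab KO, or 64.7% called, among them the Integrator subunit Ints1, which was 2.68-fold lower in Mbd3abc KO and 2.43-fold lower in Mbd3cΔN-ab KO.

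Among the H/ACA snoRNAs, Snora74a, Snora23 and Snora81 were higher. Snora74a had the most reads among the snoRNAs called in each line. It had 682 and 751 normalized reads in Mbd3abc KO, against 241 and 227 in WT, 3.07-fold higher. In Mbd3cΔN-ab KO it had 954 and 537, against 228 and 217 in WT, 3.35-fold higher. Snora23 had 339 and 643 in Mbd3abc KO, against 92.7 and 93.0 in WT, 5.29-fold higher, and 344 and 204 in Mbd3cΔN-ab KO, against 88.0 and 88.9 in WT, 3.10-fold higher. It was the only small RNA higher in 3 mutants, at 14.4-fold in Mbd3c KO, all against the same WT libraries. Snora81 was 5.14-fold higher in Mbd3abc KO, at 119 and 255 normalized reads, against 27.0 and 45.7 in WT. The rows of Snora74a and Snora81 overlap predicted microRNA genes. The other H/ACA snoRNAs were lower, 2.34-fold to 4.41-fold in Mbd3abc KO and 2.24-fold to 3.25-fold in Mbd3cΔN-ab KO. Snora17 had 47.4 and 50.6 normalized reads in Mbd3abc KO, against 126 and 103 in WT. Snora7a was 4.41-fold lower in Mbd3abc KO and 3.14-fold lower in Mbd3cΔN-ab KO, and Snora26 was 3.62-fold lower in Mbd3abc KO and 2.24-fold lower in Mbd3cΔN-ab KO. The H/ACA core proteins Dkc1, the pseudouridine synthase, and Gar1 were higher, Dkc1 3.05-fold in Mbd3abc KO and 2.67-fold in Mbd3cΔN-ab KO and Gar1 1.62-fold in Mbd3abc KO, and Nhp2 was lower, 1.74-fold in Mbd3abc KO and 1.67-fold in Mbd3cΔN-ab KO. These were 3 of the 4 genes on that list.

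Among the C/D snoRNAs, Snord2 rose most in both lines, with 44.5 and 45.8 normalized reads in Mbd3abc KO, against 6.44 and 8.16 in WT, 6.19-fold higher, and 28.9 and 33.9 in Mbd3cΔN-ab KO, against 6.11 and 7.79 in WT, 4.51-fold higher. Snord47 was 4.21-fold higher in Mbd3abc KO, at 32.9 and 45.8 normalized reads, against 6.44 and 12.2 in WT, and Snord4a 2.61-fold higher. The C/D snoRNAs that were lower were so by 2.21-fold to 6.66-fold in Mbd3abc KO and by 2.39-fold to 5.51-fold in Mbd3cΔN-ab KO. The 6.66-fold value, of Snord53, rests on 4 reads over the Mbd3abc KO libraries and 25 over the WT libraries. Snord22 had 83.02 and 74.5 normalized reads in Mbd3cΔN-ab KO, against 209 and 168 in WT, and Snord49a 25.3 and 17.8, against 70.9 and 45.2. Of the 4 genes for C/D core proteins 1 was called, Nop58, which was 2.61-fold higher in Mbd3abc KO and 1.74-fold higher in Mbd3cΔN-ab KO. Of 11 snoRNP assembly genes, 2 were higher and 4 lower in Mbd3abc KO, and 2 higher and 3 lower in Mbd3cΔN-ab KO, shares called near the background. The ATPase Ruvbl2 and its partner Pih1d1 were 3.03-fold and 2.39-fold lower in Mbd3abc KO, and 2.08-fold and 2.20-fold lower in Mbd3cΔN-ab KO.

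The snoRNAs of Rpl13a did not move together. Snord33 had 5.80 and 5.72 normalized reads in Mbd3abc KO, against 28.3 and 17.1 in WT, 3.94-fold lower, and 3.61 and 4.23 in Mbd3cΔN-ab KO, against 26.9 and 16.4 in WT, 5.51-fold lower. Snord35a was 2.21-fold lower in Mbd3abc KO, at 22.2 and 26.7 normalized reads, against 47.6 and 60.4 in WT. Snord34, which lies between these snoRNAs, was 2.81-fold higher in Mbd3cΔN-ab KO, at 426 and 275 normalized reads, against 101 and 148 in WT. The host Rpl13a was 1.70-fold lower in Mbd3abc KO and 1.44-fold lower in Mbd3cΔN-ab KO. Per kilobase, Snord34 stood at 0.525 of Rpl13a in Mbd3cΔN-ab KO and at 0.129 in WT. Mir5121, which shares 30 bases of its row with Snord33, was 3.31-fold lower in Mbd3abc KO.

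MicroRNA genes formed the largest class. Mir5114, in an untranslated exon of the desaturase gene Scd2, had 6.77 and 22.9 normalized reads in Mbd3abc KO, against 200.8 and 250.4 in WT, 15.2-fold lower, and 36.1 and 42.3 in Mbd3cΔN-ab KO, against 191 and 239 in WT, 5.48-fold lower. No longer gene whose row spans Mir5114 was called in either line, so no value of Scd2 stands beside it. Mir704 was 7.12-fold lower in Mbd3abc KO, at 4.83 and 9.54 normalized reads, against 65.7 and 36.7 in WT. Mir686, in coding sequence of the proteasome gene Psmb5, was 3.08-fold lower in Mbd3abc KO, beside 3.39-fold for Psmb5 itself, and 2.19-fold lower in Mbd3cΔN-ab KO, beside 2.48-fold for Psmb5. Mir8094, in coding sequence of the helicase gene Ddx39b, was 1.64-fold lower in Mbd3abc KO, beside 1.91-fold for Ddx39b, and 1.59-fold lower in Mbd3cΔN-ab KO, beside 1.51-fold for Ddx39b. Of the 6 microRNA genes that were higher in Mbd3abc KO, Mir684-1 had the most reads, with 168 and 236 normalized reads, against 25.7 and 78.3 in WT, 3.88-fold higher. The file lists 9 copies of it, so its place is uncertain, and the listed one lies in an untranslated exon of Sumo2, which was 1.91-fold higher. Mir6904 was 3.10-fold higher in Mbd3abc KO and 2.67-fold higher in Mbd3cΔN-ab KO. Among microRNA genes with more than 3 reads in each group, those lower were so by 1.64-fold to 15.2-fold in Mbd3abc KO and by 1.59-fold to 10.9-fold in Mbd3cΔN-ab KO, and those higher by 2.13-fold to 3.88-fold in Mbd3abc KO.

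In the miR-290 cluster, neighbours went opposite ways. Mir291a had 0.967 and 4.77 normalized reads in Mbd3abc KO, against 25.7 and 31.0 in WT, 9.89-fold lower, while Mir290a had 83.1 and 129, against 54.1 and 42.4 in WT, 2.20-fold higher. In Mbd3cΔN-ab KO Mir291a was 10.9-fold lower, at 2.41 and 2.54 normalized reads, against 24.4 and 29.6 in WT, and Mir291b 1.92-fold lower, at 30.1 and 39.8, against 73.3 and 60.8. D7Ertd143e, a longer transcript whose row spans Mir291a and Mir291b, was 1.32-fold lower there. Mir669i and Mir669j lie in introns of the Polycomb-related gene Sfmbt2, which was 7.98-fold lower in Mbd3abc KO and 2.47-fold lower in Mbd3cΔN-ab KO. Mir669j had no read in Mbd3abc KO and 24 reads over both WT libraries, at least 8.76-fold lower with a floor of 3 reads over the group. Of 12 microRNA processing genes, 3 were higher and 4 lower in each line, or 58.3% called, against 52.1% of all genes in Mbd3abc KO and 41.5% in Mbd3cΔN-ab KO. The Argonaute genes Ago4 and Ago3 were 6.43-fold and 3.95-fold higher in Mbd3abc KO and 4.67-fold and 2.59-fold higher in Mbd3cΔN-ab KO, and Tarbp2, a partner of Dicer, was 2.77-fold lower in Mbd3abc KO and 2.40-fold lower in Mbd3cΔN-ab KO. Of 15 genes of small RNA turnover, 5 were higher and 5 lower in Mbd3abc KO, or 66.7% called, and 3 higher and 5 lower in Mbd3cΔN-ab KO, or 53.3% called, with the exosome subunit Exosc5 5.25-fold lower in Mbd3abc KO and 3.28-fold lower in Mbd3cΔN-ab KO.

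Small RNAs were also set beside the longer gene whose deposited row spans them on the same strand, here called the host, where both were called in the same table. In Mbd3abc KO 23 of 26 pairs had the same direction, over 22 distinct hosts, and in Mbd3cΔN-ab KO 15 of 19, over 16 hosts. For members in introns by GENCODE, the same direction was found for 6 of 7 pairs in Mbd3abc KO, but for only 2 of 5 pairs in Mbd3cΔN-ab KO. For members in exons it was found for 16 of 18 pairs in Mbd3abc KO and for 11 of 12 pairs in Mbd3cΔN-ab KO. The pairs of 3 members, Snora17, Mir291a and Mir291b, had the same direction but lie outside longer genes by GENCODE. The pairs were not tested, since reads of the host can fall in the row of the member. Snora23 stood beside its host Ipo7, an importin gene, which had 4198 and 5324 normalized reads in Mbd3abc KO, against 1796 and 1663 in WT, 2.75-fold higher. Snord2 and Snora81 share Eif4a2, a translation initiation factor gene, which was 2.86-fold higher in Mbd3abc KO. The folds of Snora23, Snord2 and Snora81 in Mbd3abc KO, 5.29, 6.19 and 5.14, were larger than those of their hosts. The pairs with opposite directions were Snora65 in Rpl12, Mir1894 in Ppp1r10 and Mir6904 in Parp1 in Mbd3abc KO, and Rnu73b in Rps3a1, Mir1949 in Snhg4, Mir6904 in Parp1 and Snord34 in Rpl13a in Mbd3cΔN-ab KO. In Snhg4, a snoRNA host RNA gene, Snora74a was 3.35-fold higher and Mir1949 3.11-fold lower in Mbd3cΔN-ab KO, where Snhg4 itself was 1.63-fold higher.

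**Figure D3:**
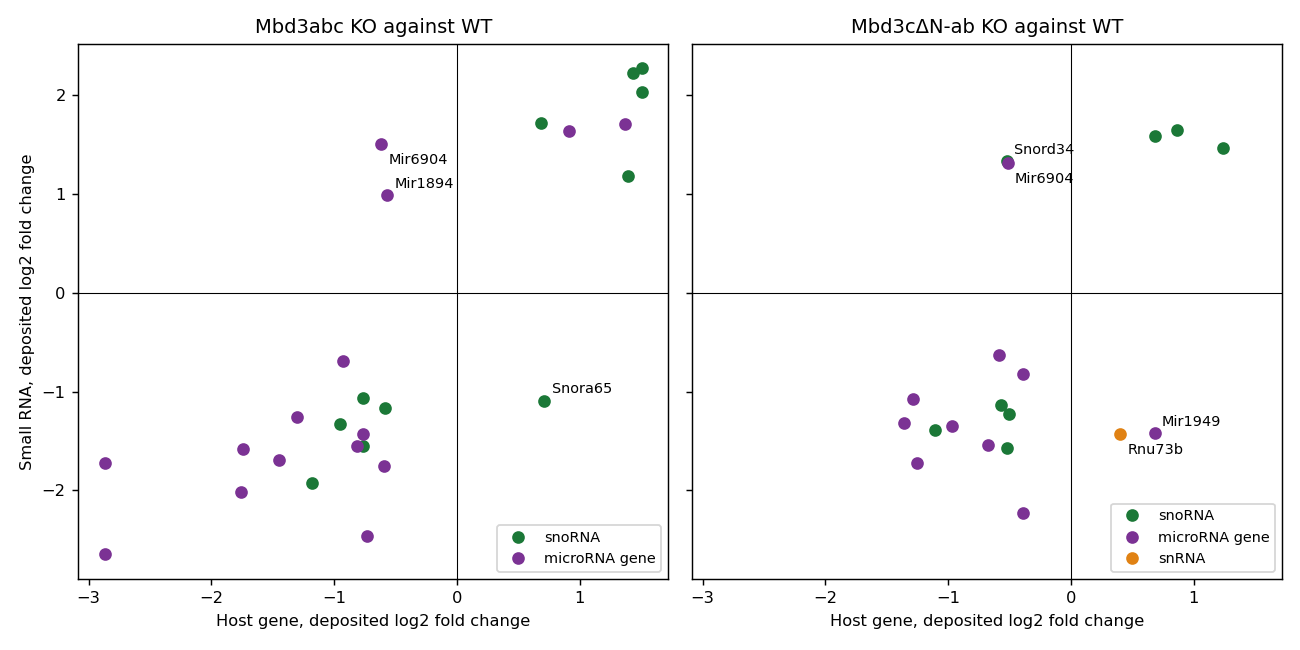
Deposited log2 fold change of each small RNA (vertical axis) against that of the longer gene whose row spans it (horizontal axis), for pairs called in the same table, left in Mbd3abc KO (26 pairs) and right in Mbd3cΔN-ab KO (19 pairs). Points in the upper right and lower left have the same direction, and the 3 and 4 pairs with opposite directions are named.

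Base composition was also set beside the direction of the members, as a description. It was taken over the whole RNA in GENCODE, not over the bases counted, which for Scarna2 were 61 of 414. In Mbd3abc KO the median GC content was 44.6% for the 13 higher members with a GENCODE sequence and 51.3% for the 31 lower members, and in Mbd3cΔN-ab KO 46.6% for 6 higher and 51.3% for 23 lower members. The ranges overlapped, with 35.1% to 61.7% for higher and 35.4% to 67.1% for lower members in Mbd3abc KO. The part of base composition in the results was not tested.

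To set the 2 lines against each other directly, the 6 libraries of Mbd3abc KO, Mbd3cΔN-ab KO and WT were fitted together over the 5404 genes called in both. Small RNAs called in only 1 of the lines, among them Rpph1, Snord34 and Rnu12, could not be tested. All 23 that were kept had the same direction against the same WT libraries, so this choice favoured genes that were alike in both lines. The count of small RNAs called thus cannot show that the lines were alike. With the edgeR quasi-likelihood test 361 genes were called between the mutants, or 6.68%, with 3.24% higher and 3.44% lower in Mbd3abc KO, and 0 of the 23 small RNAs. At an unadjusted p under 0.05 there were 3, Mir5114, Mir686 and Scarna2, all lower in Mbd3abc KO, and DESeq2 called 1. Mir5114 had 6.66 and 21.9 TMM-scaled reads in Mbd3abc KO and 38.5 and 43.4 in Mbd3cΔN-ab KO, a log2 fold change of -1.51 with an edgeR adjusted p of 0.0835. Without the second Mbd3abc KO library, 1 small RNA was called. Scarna2 had 174 and 271 in Mbd3abc KO and 434 and 277 in Mbd3cΔN-ab KO, with a log2 fold change of -0.66 and an edgeR adjusted p of 0.141 and with the lower Mbd3cΔN-ab KO library next to the higher Mbd3abc KO library. The median log2 fold change between the lines was -0.20 over the 23 small RNAs and -0.02 over all genes fitted.

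**Figure D4:**
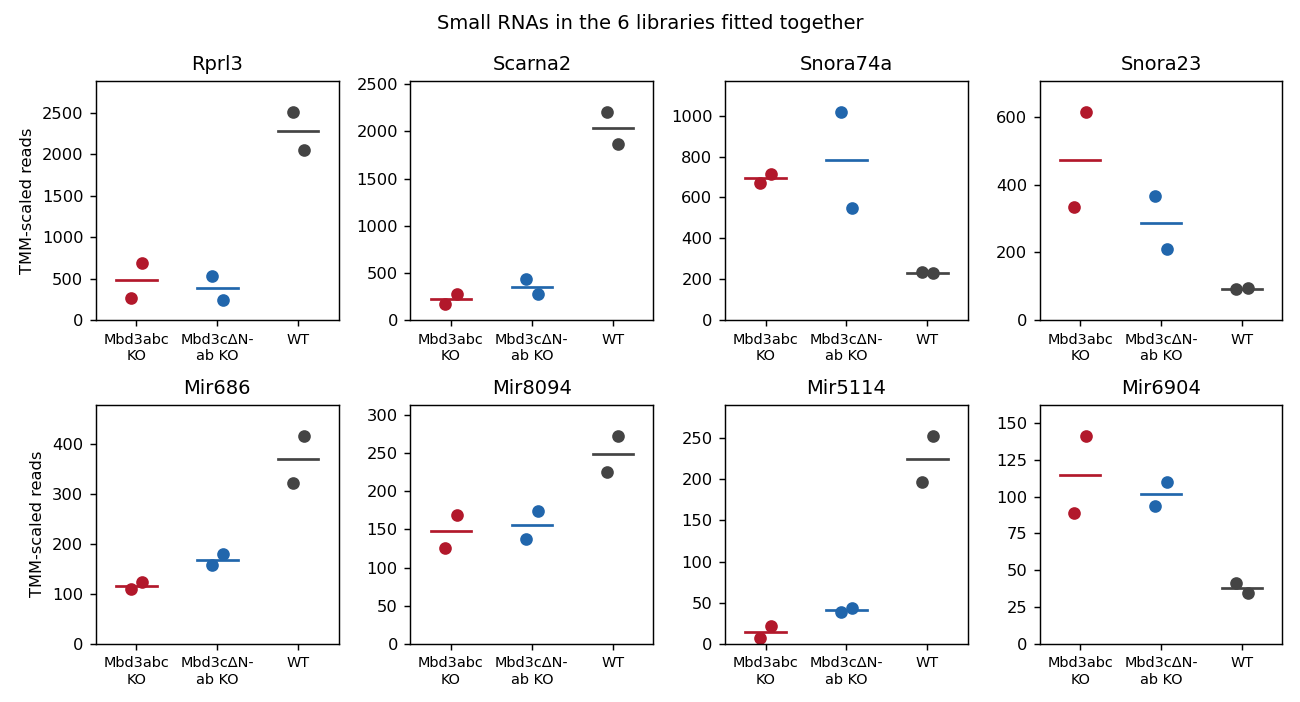
TMM-scaled reads (axes from 0) of the 8 small RNAs with the highest mean level among the 23 called in both lines, with 1 point per library and a line at each group mean (n = 2 each): Mbd3abc KO, Mbd3cΔN-ab KO, WT from left to right. Mutant libraries lie below WT for Rprl3, Scarna2, Mir686, Mir8094 and Mir5114 and above WT for Snora74a, Snora23 and Mir6904. In the comparison of each line with WT, the libraries are apart for 100% of genes called. For none of these 8 was the difference between Mbd3abc KO and Mbd3cΔN-ab KO called by edgeR.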

How the data were processed

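RNA sequencing was analysed from the tables the authors deposited, 1 per mutant, which list called genes. The submitters' processing notes name TopHat2, HOMER, DESeq2 and the build mm10. Exon reads were counted by HOMER on 1 strand, with transcripts condensed to genes, per the file headers. Versions and aligner settings are not given here. The deposited read columns are a signal scaled to equal library totals, and the deposited log2 fold changes (shrunken, mutant over WT) with SE, p-values and adjusted p-values came from DESeq2 per the file headers. Every signal value was a whole multiple of 1 step per library within 0.006 (100% of values), so reads were recovered, and levels are reads divided by size factors solved from the deposited mean. For Mbd3ab KO and Mbd3c KO, whose tables are short, this rests also on WT reads that equalled those of the other tables. The number of genes tested was recovered from p and adjusted p.

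Calls are the authors' at an adjusted p under 0.05. Folds are ratios of group means, given where each group had more than 3 reads. Refits of the listed genes, which take the spread from selected genes, used edgeR 4.0.16, limma 3.58.1 (log2(normalized reads + 1), trended) and DESeq2 1.42.0 in R 4.3.3, checked on simulated data. The contrast of Mbd3abc KO with Mbd3cΔN-ab KO used edgeR with TMM and Benjamini-Hochberg adjustment. Positions and sequences came from GENCODE M21 (57 of 58 members matched) and RefSeq, on the same build. Files carry no replicate numbers for columns, and where nothing says that libraries came from separate cultures the p-values measure the spread between libraries, which may be technical. Members and protein lists were chosen with earlier results of these data known. Named members were all those called in Mbd3c KO and, in the large tables, those called in 3 tables or in opposite directions, up to 4 per class by level, the 4 with the largest fold in each direction, and host pairs; others were chosen after their values were seen. Intervals of reads cover counting error only. Absolute library totals are not known.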

Additional observations from a re-analysis of the deposited data

Results flagged for a closer look

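Rpph1, the RNA of ribonuclease P, moved in opposite directions in 2 mutants. Its deposited log2 fold change was 1.75 in Mbd3c KO and -0.50 in Mbd3abc KO, each against the same WT libraries. In each case both mutant libraries lay on 1 side of both WT libraries, as for 100% of genes called. The difference between the 2 mutants was not tested. Only 19 genes were listed for both, which is few for scaling their libraries together. Rpph1 was not among the genes called in Mbd3cΔN-ab KO. The Mbd3c KO call was lost with edgeR (adjusted p = 0.337), with limma (0.24) and, in a DESeq2 refit, without the second WT library (0.141). The Mbd3abc KO call was lost with limma (adjusted p = 0.0964) and, in DESeq2 refits, without the second Mbd3abc KO library (0.177), the first WT library (0.458) or the second WT library (0.0801). The direction was the same in each of these refits, which the separation of the libraries left little room to change. The split of reads between Rpph1 and Rprl3 is uncertain.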

How the results depend on the processing

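Of 46 counts under other settings in the comparisons with small RNAs listed, 28 stayed within 1.5 times the count reported. Mbd3ab KO is left out of this tally, because its table lists no small RNA to recount. In Mbd3c KO the 11 became 5 with Length under 200 bases and 0 with edgeR or limma, and 1 to 11 with a library left out. In Mbd3abc KO the 45 became 28 at an adjusted p under 0.01, and 9 to 18 with a library left out. In Mbd3cΔN-ab KO the 29 became 17 at an adjusted p under 0.01 and 16 in a DESeq2 refit, and 6 to 11 with a library left out. Between the mutants the 0 became 1 with DESeq2, and 0 to 1 with a library left out. Scaling by library totals, an alternative chosen after seeing the data, also gave 0. Over 595 refitted values of members, 0 had a direction opposite to the deposited one. There was little room for another outcome, because mutant and WT libraries were apart for 100% of genes called. Refits hold fewer libraries or only selected genes, and with 1 library left in a group it is assumed to vary like the other groups. No paired analysis was possible because the columns carry no replicate numbers. At this depth, at least 10 reads on average stood behind 38 of the 45 members in Mbd3abc KO and behind 25 of the 29 in Mbd3cΔN-ab KO, and a small RNA missing from a table cannot be called unchanged.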
